A study of Mus musculus with 24 samples.

Results

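Mouse retinas were taken directly after hypoxia or after 2 h of reoxygenation, and the change of the hypoxia effect over these first 2 h was measured as a difference of differences. For each probe set, the unit of this array type and a cluster of short probes aimed at 1 transcript, the log2 difference between hypoxic and normoxic retinas at 0 h was subtracted from the same difference at 2 h. The comparison rests on 12 of the 24 arrays of the series, 3 for each of 4 groups, and covers all 45037 non-control probe sets. A value below 0 means that the effect was lower at 2 h than at 0 h, and a value above 0 means that it was higher.

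The mice were of the BALB/c strain, an albino strain, and all were homozygous for the leucine variant of Rpe65 that makes photoreceptors light sensitive. Hypoxic mice breathed 6% O2 for 6 h, and their retinas were collected at once (hypoxia 0 h) or 2 h later (hypoxia 2 h). The paper states room air and darkness for longer reoxygenations and does not give the lighting of these 2 h. Normoxic mice never had reduced oxygen and were sampled alongside at both time points (normoxia 0 h and normoxia 2 h). RNA from 3 retinas of 3 different animals was pooled for each array, so the 3 values of a group come from separate animals. Ages and sexes of the mice were not given in the sources used here. The retina is a mixture of cell types, and in such pools fewer cells of a type and less RNA per cell cannot be told apart.

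When oxygen falls, the enzymes that mark the alpha subunit of hypoxia-inducible factor 1 (HIF-1) for degradation slow down, the factor accumulates, and genes for glucose use, blood vessel growth and oxygen sensing are transcribed. On return to room air the subunit is hydroxylated and degraded again within minutes, so that the transcripts it maintained then decay at their own rates. Egln1 and Egln3, which encode the oxygen-sensing hydroxylases themselves, are among its targets. How quickly each transcript returns to its control level after hypoxia was the question of the comparison.

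A probe set was tested when the mean of at least 1 of the 4 groups reached a log2 signal of 6.69, the minimum between the peaks of the distribution of all values at 3.8 and 7.9. Of the 45037 probe sets, 19098 were tested, and limma called the hypoxia effect different between 0 h and 2 h for 1568 of them (8.21%) at an adjusted p under 0.05. The effect was lower at 2 h for 535 (2.8%) and higher for 1033 (5.41%), and for 190 it had changed by more than 1 on the log2 scale. The called probe sets belong to 1182 genes. At 0 h, 15.2% of 18799 tested probe sets were higher and 17.2% lower in hypoxic retinas. At 2 h, 9.19% of 18587 were higher and 7.38% lower. The comparisons at 0 h, at 2 h and between them use the same arrays, so their counts are not independent of each other.

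**Figure D1:**
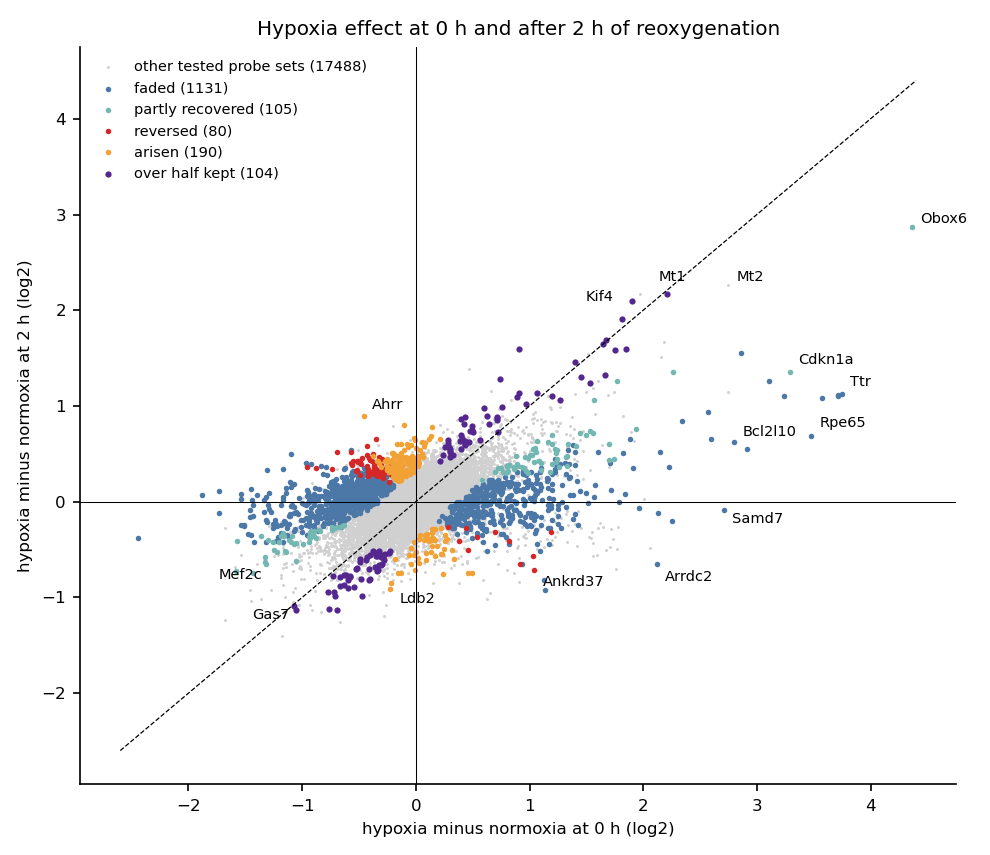
Each point is 1 of the 19098 tested probe sets, with the log2 hypoxia effect at 0 h on the x axis and at 2 h on the y axis. The dashed line marks equal effects. Most of the 1131 faded probe sets (blue) lie near the horizontal axis, though some, such as Ttr, lie well off it. The 80 reversed ones (red) lie in the opposite quadrants, and the 104 with more than 50% of the effect kept (purple) near or beyond the dashed line.

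Fading was the most frequent course. Of the 1568 probe sets, 1131 (72.1%) were changed at 0 h and no longer called at 2 h, with the absolute effect going from a median of 0.60 to 0.12. In 77 of these the effect at 2 h was not tested, because both groups lay under the signal threshold. Another 105 (6.7%) had partly recovered, being called in the same direction at both time points with a smaller effect at 2 h. For 80 (5.1%) the effect had reversed and was called in opposite directions, and for 190 (12.1%) it had arisen, being called only at 2 h. Of the 1568, 0 were called in the same direction at both time points with a larger effect at 2 h. The remaining 62 were called at neither time point (58) or fitted none of these courses (4). Of the 58, 15 had an effect that was not tested at 1 of the time points, and so had 7 of the 190 at 0 h. Of the 1568 calls, 808 were made again when each of the 12 arrays was left out in turn.

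Differences towards the control were called for decreases and increases alike. Of the 3242 probe sets that were lower after hypoxia, 850 (26.2%) had a called difference towards the control, against 470 of the 2849 higher ones (16.5%), and this contrast between directions was not tested. The median effect of the lower ones went from -0.42 to -0.14 and that of the higher ones from 0.43 to 0.21. Because the probe sets were taken for a called effect at 0 h on the same arrays, these medians can overstate the return to the control level. Among the large increases, the 27 probe sets higher by 2 or more on the log2 scale had a median effect of 2.75 at 0 h and 1.10 at 2 h, and 22 of them had a called difference.

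A second contrast tested the effect at 2 h against 50% of that at 0 h, and few probe sets were settled by it. Of the 6091 changed at 0 h, 380 (6.24%) had lost more than 50% of the effect at 2 h and 104 (1.71%) had kept more than 50%. For the others it could not be told on which side of 50% the effect lay. The loss was called for 263 lower and 117 higher probe sets, and the retention for 50 and 54.

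The HIF-1 targets moved together. Of 26 genes of the list on the array, 23 were tested. At 0 h, 21 of these were higher after hypoxia and 0 lower, beside 15.2% and 17.2% of all tested probe sets. For 19 of the 23 the effect was lower at 2 h than at 0 h, and for 0 it was higher, beside 2.8% and 5.41% of all tested probe sets. The median effect over the 23 genes went from 0.85 to 0.02, with a median difference of -0.95 beside 0.01 over all tested probe sets. The count of 19 stood between 17 and 19 when each array was left out. At 2 h, 6 of the genes were still higher and 4 were lower than in the controls, beside 9.19% and 7.38% of all tested probe sets.

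**Figure D2:**
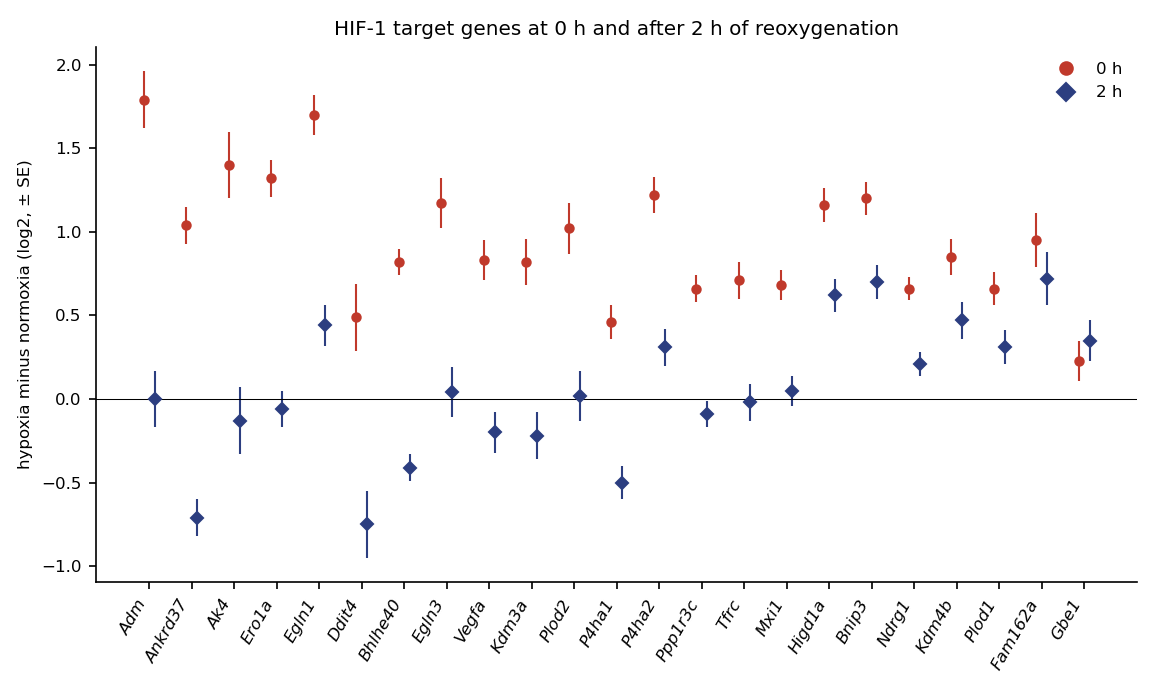
The log2 hypoxia effect ± SE of the 23 tested HIF-1 target genes is plotted at 0 h (red circles) and 2 h (blue diamonds), ordered by the difference between them. Ankrd37, Ddit4, Bhlhe40 and P4ha1 are the 4 called lower at 2 h, the 6 others below 0 there were not called, and Fam162a, Bnip3 and Higd1a lie at 0.62 or above at both time points.

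Ankrd37, a gene for an ankyrin repeat protein that HIF-1 induces directly, overshot its control level. Its log2 signal was 9.82, 9.68 and 9.81 in the hypoxic pools at 0 h, against 8.67, 8.56 and 8.97 in the normoxic pools. At 2 h the hypoxic pools read 8.03, 7.98 and 7.93 and the normoxic pools 8.49, 8.57 and 9.01. The hypoxic pools thus lay above all controls at 0 h and below all controls at 2 h. The effect went from 1.04 to -0.71, a difference of -1.75 ± 0.16 (SE; adjusted p = 1.31e-06).

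Bhlhe40, which encodes a transcriptional repressor of the clock and of metabolism, followed the same course. The hypoxic pools read 10.46, 10.35 and 10.47 at 0 h and 9.14, 9.22 and 9.29 at 2 h. The normoxic pools stayed between 9.54 and 9.67 at both time points, and none overlapped with the hypoxic pools. The effect went from 0.82 to -0.41, a difference of -1.22 ± 0.11 (adjusted p = 1.31e-06).

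P4ha1, a catalytic subunit of the collagen prolyl hydroxylase, had an effect of 0.46 at 0 h and -0.50 at 2 h (difference -0.95 ± 0.14, adjusted p = 0.00027). Here the controls moved as well. The normoxic pools rose from 8.72, 8.67 and 8.70 to 9.08, 9.42 and 9.22, a shift of 0.55, and the hypoxic pools fell by 0.41. The normoxic shift was of like size for its partner P4ha2 (0.67), for the lysyl hydroxylase gene Plod2 (0.67) and for Egln3 (0.61, not called), and 3 of the 23 targets had a called normoxic shift.

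Ddit4, an inhibitor of the growth kinase mTORC1, had the lowest effect at 2 h of the list. The effect was 0.49 ± 0.20 at 0 h, not called (adjusted p = 0.0613), and -0.75 ± 0.20 at 2 h (adjusted p = 0.0115). The pools at 2 h were spread, with 9.87, 8.98 and 9.80 in hypoxic and 9.89, 10.26 and 10.76 in normoxic retinas, so that the highest hypoxic pool lay only 0.02 below the lowest control. The difference was -1.24 ± 0.28 (adjusted p = 0.00671).

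Of the 12 faded targets, 10 were tested and not called at 2 h, and 2, Adm and Egln3, were not tested there because both groups lay under the threshold. Adm, the gene for the vasodilator peptide adrenomedullin, read 6.76, 7.12 and 7.29 in hypoxic pools at 0 h and 5.30, 5.58 and 5.65 at 2 h. Its normoxic pools lay between 5.10 and 5.72, and overlapped with the hypoxic ones at 2 h. The effect went from 1.79 to 0.00 (difference -1.79 ± 0.23, adjusted p = 6.32e-05), and only the hypoxic pools at 0 h were above the signal threshold. By real-time PCR the paper still found Adm raised at 2 h, so the 0.00 does not show a full return to the control level. Vegfa, the vascular growth factor gene, went from 0.83 to -0.20 (difference -1.03 ± 0.17, adjusted p = 0.000625). Ero1a, an oxidase of disulfide bond formation, went from 1.32 to -0.06, and Kdm3a, a histone demethylase, from 0.82 to -0.22.

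A smaller group of targets was still raised at 2 h. Egln1 read 11.65, 11.75 and 11.72 in hypoxic and 10.28, 9.97 and 9.77 in normoxic pools at 0 h. At 2 h the hypoxic pools read 10.94, 10.57 and 10.62 and the normoxic pools 10.01, 10.35 and 10.46, still without overlap. The effect was 1.70 and then 0.44 (difference -1.26 ± 0.18, adjusted p = 0.000128). The mitophagy receptor gene Bnip3 went from 1.20 to 0.70 and the mitochondrial gene Higd1a from 1.16 to 0.62. The call for Bnip3 was made in 5 of the 12 fits without an array. Of the 4 targets with no called difference, Kdm4b, Plod1 and Fam162a were called higher at both time points and Gbe1 at neither. A second probe set of Fam162a, below the threshold at 2 h, went from 1.13 to -0.82, so the probe sets of this gene disagree.

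The stretches of DNA before the transcription start of 4 oxygen-regulated genes are shown because they move together and differ in how far they fell. They are the 250 bases upstream of the start in RefSeq on GRCm38.p6, written 5′ to 3′ along the gene, with capitals for the core letters of the HIF response element, ACGTG or GCGTG, on either strand. Those of Ankrd37 (chr8:45999851-46000100, minus strand) hold 4 cores, 2 of which overlap, and those of P4ha1 (chr10:59323046-59323295, plus strand) hold 3. Those of Pfkfb3 (chr2:11553930-11554179, minus strand, the first of its promoters listed) hold 1, and those of Adm (chr7:110627407-110627656, plus strand) hold 2.
Ankrd37: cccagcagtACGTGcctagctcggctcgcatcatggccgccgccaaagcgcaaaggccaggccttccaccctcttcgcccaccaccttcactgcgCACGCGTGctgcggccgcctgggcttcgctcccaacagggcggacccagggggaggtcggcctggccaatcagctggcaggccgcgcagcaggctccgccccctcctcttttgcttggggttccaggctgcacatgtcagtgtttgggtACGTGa
P4ha1: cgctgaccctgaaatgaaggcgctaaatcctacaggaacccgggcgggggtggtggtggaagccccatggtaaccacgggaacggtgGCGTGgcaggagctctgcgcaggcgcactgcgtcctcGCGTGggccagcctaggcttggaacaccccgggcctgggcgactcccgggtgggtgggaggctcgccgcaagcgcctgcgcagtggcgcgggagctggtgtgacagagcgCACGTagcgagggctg
Pfkfb3: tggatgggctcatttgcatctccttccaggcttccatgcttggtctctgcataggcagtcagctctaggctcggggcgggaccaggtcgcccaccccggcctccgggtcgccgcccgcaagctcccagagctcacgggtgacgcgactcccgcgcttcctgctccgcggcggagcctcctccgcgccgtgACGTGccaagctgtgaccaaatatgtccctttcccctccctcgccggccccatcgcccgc
Adm: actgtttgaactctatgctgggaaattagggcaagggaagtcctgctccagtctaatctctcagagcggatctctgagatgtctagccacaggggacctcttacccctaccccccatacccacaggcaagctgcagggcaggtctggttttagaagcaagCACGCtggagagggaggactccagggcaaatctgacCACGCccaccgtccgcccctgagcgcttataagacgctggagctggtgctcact
Of the 26 HIF-1 targets, 22 had a promoter in the table, and 18 of these (81.8%) held a core within the 250 bases. Among all 27025 genes of the table the share was 38.6%, and among the 8372 with a tested probe set it was 58.7%. For the genes that were higher at 0 h and had reversed, 7 of 8 promoters held one, and for those lower at 0 h that had reversed, 32 of 53 did (60.4%). These 5 letters are frequent, and a match is a description of the sequence only.

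Of 21 tested genes of glycolysis and glucose uptake, 11 were higher at 0 h (15.2% of all tested probe sets were), and the effect of 4 was lower at 2 h than at 0 h (2.8% of all). Pfkfb3, whose product makes the main activator of phosphofructokinase, reversed: the effect went from 1.19 to -0.32 (difference -1.51 ± 0.15, adjusted p = 4.51e-06). Its hypoxic pools read 8.31, 8.18 and 8.13 at 0 h and 7.38, 6.94 and 7.19 at 2 h, while its controls were 7.04, 7.10 and 6.92 and then 7.50, 7.55 and 7.41. The lactate exporter gene Slc16a3 went from 1.91 to 0.35, the glucose transporter gene Slc2a1 from 0.59 to -0.16, and hexokinase 2 from 0.97 to 0.30. For Pdk1 (0.61 and 0.52) and Pfkp (0.58 and 0.62), both called higher at 0 h and at 2 h, no difference was called, and the 95% intervals of the difference were -0.48 to 0.30 and -0.30 to 0.38.

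Of 13 tested glucocorticoid-induced genes, 12 were higher at 0 h, beside 15.2% of all tested probe sets. For 7 the effect was lower at 2 h than at 0 h, beside 2.8% of all, and this count lay between 4 and 7 without each array. Arrdc2, an arrestin family gene, read 8.65, 8.28 and 8.47 in hypoxic pools at 0 h and 6.70, 5.60 and 5.93 at 2 h, with controls between 6.15 and 7.04 throughout. Its effect went from 2.12 to -0.65 (difference -2.77 ± 0.32, adjusted p = 1.97e-05), and at 2 h it was not called (adjusted p = 0.0538). The negative regulator of growth factor receptors Errfi1 reversed from 0.70 to -0.32. By contrast, Fkbp5, a co-chaperone of the glucocorticoid receptor, read 10.27, 10.48 and 10.22 at 0 h and 10.20, 10.07 and 10.22 at 2 h in hypoxic pools, against controls of 8.78 to 9.02. The effect was 1.53 and then 1.24, more than 50% kept on this probe set, while a second probe set went from 1.57 to 1.06 with a called difference of -0.51 ± 0.12. Lcn2, the secreted iron carrier lipocalin 2, was 1.97 higher at 0 h and 2.17 higher at 2 h, with a difference of 0.20 ± 0.51 (95% interval -0.86 to 1.26).

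Cdkn1a, the gene for p21, an inhibitor of the cell cycle, was 9.81-fold higher in hypoxic retinas at 0 h and 2.55-fold higher at 2 h. The hypoxic pools read 9.74, 9.08 and 9.50 and then 8.21, 7.06 and 7.67, and the controls lay between 5.90 and 6.49, below the threshold. The difference on the log2 scale was -1.94 ± 0.35 (adjusted p = 0.0011). The stress-induced genes Gadd45b (2.15 to 0.52), Gadd45g (0.94 to 0.03) and Gadd45a (0.37 to -0.22) all had an effect called lower at 2 h than at 0 h. Of 16 tested genes of p53 targets and growth arrest, the effect was lower at 2 h than at 0 h for 5 and higher for 1, Trp53inp1, beside 2.8% and 5.41% of all tested probe sets, and the median difference was -0.07. Bcl2l10, of the Bcl2 family that controls apoptosis, went from 2.80 to 0.62 (difference -2.18 ± 0.27, adjusted p = 3.15e-05).

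Among the largest decreases of the effect were genes outside the list of HIF-1 targets. Samd7, a photoreceptor gene for a Polycomb-associated repressor, read 10.55, 10.63 and 10.76 in hypoxic pools at 0 h and 8.20, 7.77 and 8.31 at 2 h. Its controls lay between 7.56 and 8.54, so the pools overlapped fully at 2 h (effect 2.71 to -0.09, difference -2.80 ± 0.30, adjusted p = 8.95e-06). A second probe set of Samd7, with the higher signal, gave 1.11 and 0.53 with no called difference (adjusted p = 0.0795). Depp1, a target of FoxO factors, went from 2.25 to -0.20 on 1 probe set, while a brighter one had no called difference (0.69 and 0.35). Apold1, an endothelial early response gene, went from 2.13 to -0.12. H3f3b, which encodes histone H3.3, went from 1.96 to -0.07 on 1 probe set, and the early response factors Klf4 and Klf2 went from 1.84 to 0.08 and from 1.50 to 0.09. At 2 h Apold1, Klf4, Klf2 and this probe set of Depp1 were under the threshold and were not tested.

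**Figure D3:**
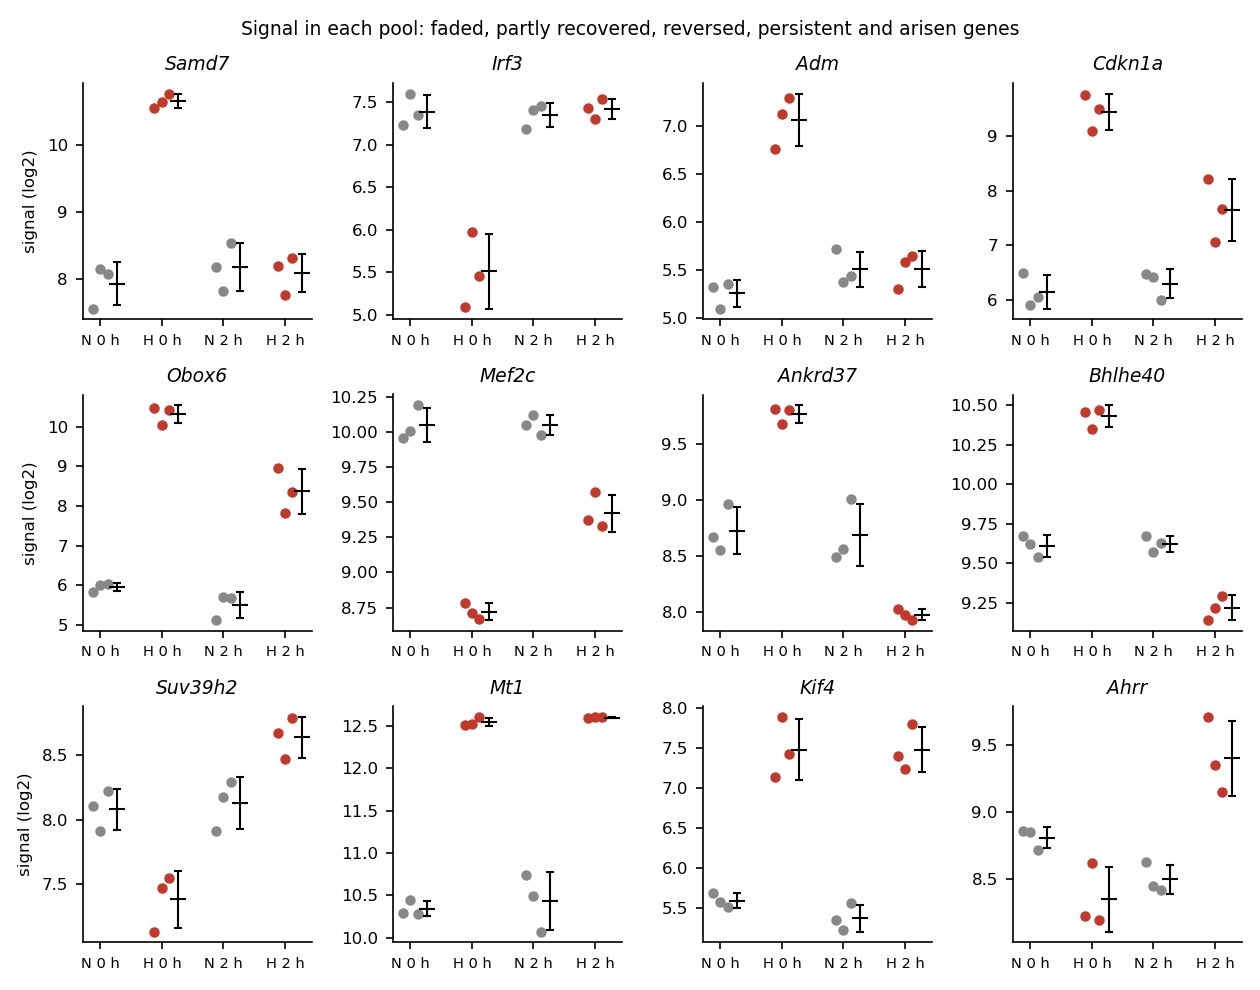
Log2 signal of 12 genes in each pool (N, normoxic, grey; H, hypoxic, red; 0 h and 2 h), with the mean ± SD of the 3 pools beside the points; the y axes differ and do not start at 0. The hypoxic pools of Samd7, Irf3 and Adm overlap with the controls at 2 h (Adm under the threshold there), those of Cdkn1a, Obox6 and Mef2c lie between, those of Ankrd37, Bhlhe40 and Suv39h2 change sides, and those of Mt1 and Kif4 stay apart from the controls.

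In the opposite direction, transcripts lowered by hypoxia came back. Irf3, an interferon regulatory factor, read 5.09, 5.97 and 5.46 in hypoxic pools at 0 h and 7.43, 7.30 and 7.54 at 2 h, with controls from 7.19 to 7.60. The effect went from -1.88 to 0.07 (difference 1.96 ± 0.23, adjusted p = 1.97e-05). A brighter probe set of Irf3 was lowered by less and had recovered in part (-0.65 and -0.25), and another was not called (-0.44 and -0.09). Bub1b, a mitotic checkpoint kinase, went from -1.73 to 0.11, the ubiquitin ligase subunit Fbxo30 from -1.73 to -0.12, the Fgf pathway inhibitor Spry3 from -1.31 to 0.33 and the cytosolic iron-sulfur assembly gene Ciao1 from -1.43 to -0.03. The differences of these 4 genes and of the first Irf3 probe set were called without each array in turn, but the other 2 tested probe sets of Fbxo30 had no called difference.

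Zinc finger genes with a Zfp symbol, mostly transcriptional repressors of the KRAB type, made up a sizeable group on this side. Of 236 tested, 65 were lower and 34 higher at 0 h, beside 17.2% and 15.2% of all tested probe sets. For 34 the effect was higher at 2 h than at 0 h and for 2 lower, beside 5.41% and 2.8% of all tested probe sets. The largest of the 34 were Zfp866 (-1.44 to 0.02), Zfp790 (-0.82 to 0.29) and Zfp248 (-0.91 to 0.20). Zfp248 was not tested at 0 h because it passed the threshold only in hypoxic pools at 2 h. The exceptions were Zfp948 (1.04 to 0.01) and Zfp292 (0.38 to -0.41). The 3 other tested probe sets of Zfp292 had a difference of the same sign, called for 2 of them. The count of 34 ranged from 21 to 38 without each array. The family holds near-identical copies, and 2 of the 34 were read by probe sets marked as matching several transcripts.

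Of 21 tested heat shock genes, 4 were higher and 6 lower at 0 h, beside 15.2% and 17.2% of all tested probe sets. The difference was called for 2, a share near the 8.21% of all. Hspa1a, an inducible Hsp70 gene, read 8.34, 8.36 and 8.13 in hypoxic pools at 0 h and 9.10, 9.19 and 9.07 at 2 h, still below the controls of 9.55 to 9.96. The effect was -1.32 and then -0.65 (difference 0.67 ± 0.15, adjusted p = 0.00809). The co-chaperone gene Chordc1 went from -0.99 to -0.44, and was the other gene with a called difference. Mef2c, a transcription factor of photoreceptors and other neurons, went from -1.33 to -0.63 (difference 0.70 ± 0.14, adjusted p = 0.00258), and 2 of its 4 other tested probe sets differed in direction.

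The reversed group held 80 probe sets of 73 named genes, 11 of them higher and 69 lower at 0 h. Suv39h2, a histone H3 lysine 9 methyltransferase, read 7.13, 7.47 and 7.55 in hypoxic pools at 0 h, against controls of 8.11, 7.91 and 8.22. At 2 h it read 8.67, 8.47 and 8.79 against 7.91, 8.18 and 8.29, so the hypoxic pools had crossed from below to above the controls without overlap. The effect went from -0.69 to 0.52 (difference 1.21 ± 0.17, adjusted p = 0.000152), and the other 2 tested probe sets moved the same way.

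The other 9 of the 10 reversed genes with the largest absolute effect at 2 h have varied roles. Those that ended above the controls were Polr3k, an RNA polymerase III subunit (-0.35 to 0.66), Rad1, a DNA damage checkpoint clamp subunit (-0.43 to 0.58), Mettl6, a tRNA methyltransferase (-0.57 to 0.52), the dynein assembly factor gene Dnaaf2 (-0.43 to 0.49) and the SUMO ligase gene Pias4 (-0.32 to 0.47). Those that ended below the controls, beside Ankrd37 and P4ha1, were Nfkbiz, an atypical inhibitor of NF-kappa B (1.03 to -0.57), and Epm2a, the glycogen phosphatase laforin (0.92 to -0.65). All 10 had a called difference without each array, but a reversal needs 3 calls at once, and 16 of the 80 probe sets were reversed in each of the 12 fits.

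Effects that arose by 2 h were smaller, with a median absolute effect of 0.14 at 0 h and 0.40 at 2 h over the 190 probe sets, 140 higher and 50 lower at 2 h. Ahrr, the repressor of the aryl hydrocarbon receptor, had the largest rise. Its hypoxic pools read 8.23, 8.62 and 8.20 at 0 h, below the controls of 8.86, 8.85 and 8.72, and 9.71, 9.35 and 9.15 at 2 h, above the controls of 8.63, 8.45 and 8.42. The effect was -0.46 (adjusted p = 0.0688) and then 0.90 (adjusted p = 0.00276), with a difference of 1.36 ± 0.27 (adjusted p = 0.00258).

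Ldb2, a LIM domain binding cofactor, was called lower at 2 h and not at 0 h (-0.23 and -0.91, difference -0.69 ± 0.17, adjusted p = 0.0152), as were 1 probe set of the axon guidance gene Ntng1 (-0.22 and -0.85) and the DNA ligase gene Lig1 (-0.16 and -0.74). Another probe set of Ntng1 was called lower at both time points (-0.24 and -0.54). The clock repressor Cry1 was called higher at 2 h and not at 0 h (0.13 and 0.69, difference 0.55 ± 0.17, adjusted p = 0.0461), whereas the effect was lower at 2 h than at 0 h for the other clock genes with a called difference, Ciart (1.38 to -0.18), Bhlhe40, Per1 (0.99 to 0.17) and Nfil3 (0.80 to 0.04). The calls for Cry1, Ntng1 and Per1 were made in 5, 4 and 4 of the 12 fits without an array, and that for Lig1 in 6. Mtf1, the zinc-sensing factor that drives metallothionein genes, went from -0.12 to 0.45 (difference 0.57 ± 0.15, adjusted p = 0.021), and 1 of its other 2 probe sets moved the opposite way.

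Mt1, a metallothionein gene whose product binds zinc and copper, kept its effect. It read 12.51, 12.53 and 12.61 in hypoxic pools at 0 h and 12.60, 12.61 and 12.61 at 2 h. Its controls were 10.29, 10.44 and 10.28 and then 10.74, 10.49 and 10.07. The effect was 2.21 and then 2.17, which is 4.63-fold and 4.51-fold, and the difference was -0.04 ± 0.26 (95% interval -0.57 to 0.49). More than 50% of the effect was kept (adjusted p = 0.00578 against 50%). Mt2 was 2.75 higher at 0 h and 2.26 higher at 2 h, with a difference of -0.49 ± 0.41 (95% interval -1.34 to 0.36) that does not settle whether more than 50% was kept.

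The 250 bases before the starts of both genes are shown to set this pair beside the oxygen-regulated genes above. They come from the same RefSeq table, for Mt1 chr8:94178839-94179088 and for Mt2 chr8:94172368-94172617, both on the plus strand, with capitals for the core letters of the metal response element, TGCACNC or TGCGCNC, on either strand.
Mt1: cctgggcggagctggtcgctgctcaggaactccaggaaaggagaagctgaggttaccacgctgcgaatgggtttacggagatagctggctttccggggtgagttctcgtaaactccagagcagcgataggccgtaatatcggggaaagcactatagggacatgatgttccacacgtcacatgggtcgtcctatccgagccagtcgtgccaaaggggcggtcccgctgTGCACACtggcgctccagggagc
Mt2: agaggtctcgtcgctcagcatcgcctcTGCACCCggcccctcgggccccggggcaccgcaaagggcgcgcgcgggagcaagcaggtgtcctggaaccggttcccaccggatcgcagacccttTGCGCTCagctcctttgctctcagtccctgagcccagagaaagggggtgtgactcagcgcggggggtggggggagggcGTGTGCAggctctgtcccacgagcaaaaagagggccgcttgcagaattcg
Within these 250 bases Mt1 has 1 core and Mt2 has 3. Sequence outside them was not searched, so these are not counts for the whole promoter of either gene. At least 1 core was held by 21.3% of all promoters of the table. The share was 31.7% for genes with a tested probe set and 45.5% for the HIF-1 targets.

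Kif4, a mitotic kinesin, read 7.13, 7.89 and 7.42 in hypoxic pools at 0 h and 7.40, 7.24 and 7.80 at 2 h, with controls from 5.22 to 5.68, below the threshold. Its effect was 1.90 and then 2.10 (difference 0.21 ± 0.24, adjusted p = 0.69). The fatty acid carrier gene Fabp4 (1.81 and 1.91), the polyamine enzyme gene Odc1 (1.27 and 1.06), the pentose phosphate enzyme gene Tkt (1.20 and 1.10) and the kinase gene Camk1d (1.07 and 1.14) also kept more than 50%. Among transcripts lowered by hypoxia, Gas7 (-1.07 and -1.09), the vitamin C synthesis gene Gulo (-1.05 and -1.13) and Kdr, the main Vegfa receptor of endothelial cells (-0.71 and -0.99), did so. Cirbp, a cold-inducible RNA-binding protein gene, was 0.63 higher at 0 h and 0.89 higher at 2 h. The effects of Kif4, Fabp4, Camk1d, Gas7, Gulo, Kdr and Cirbp were nominally larger at 2 h than at 0 h, and for none of these was the difference called.

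Obox6, an oocyte homeobox gene with the largest effect of all named genes, had partly recovered. It read 10.46, 10.05 and 10.42 in hypoxic pools at 0 h and 8.96, 7.82 and 8.34 at 2 h, with controls from 5.12 to 6.02, below the threshold. The effect was 4.36 and then 2.87 (difference -1.49 ± 0.34, adjusted p = 0.00843). The arginine transporter gene Slc7a1 was 2.16 higher at 0 h and 1.51 higher at 2 h, with no called difference (adjusted p = 0.108).

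For some genes the probe sets moved in opposite directions at 0 h and both moved back towards the controls by 2 h. Mrpl15, a mitochondrial ribosomal protein gene, was higher on 1 probe set (1.29 to 0.17) and lower on 4 (the largest decrease -0.74 to -0.05), all 5 with called differences, and a sixth was not called. Slc44a1, a choline transporter gene, was read as 1.41 to 0.58, still called at 2 h, and as -0.59 to 0.22. The long non-coding RNA Malat1 was read as -1.54 to 0.08 and -1.14 to 0.14 on 2 probe sets and as 1.16 to -0.28 on another, with 4 further probe sets not called. Probe sets of Cdk12 (0.64 to -0.13 and -0.75 to -0.03), Ric8b (0.98 to 0.15 and -0.75 to -0.16) and Fem1c (1.23 to 0.51 and -0.45 to 0.19) likewise split with called differences of both signs. The effect of 0.51 for Fem1c was still called at 2 h. For such genes no single value stands for the gene, and which parts of the transcript the probe sets read was not analysed here.

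**Figure D4:**
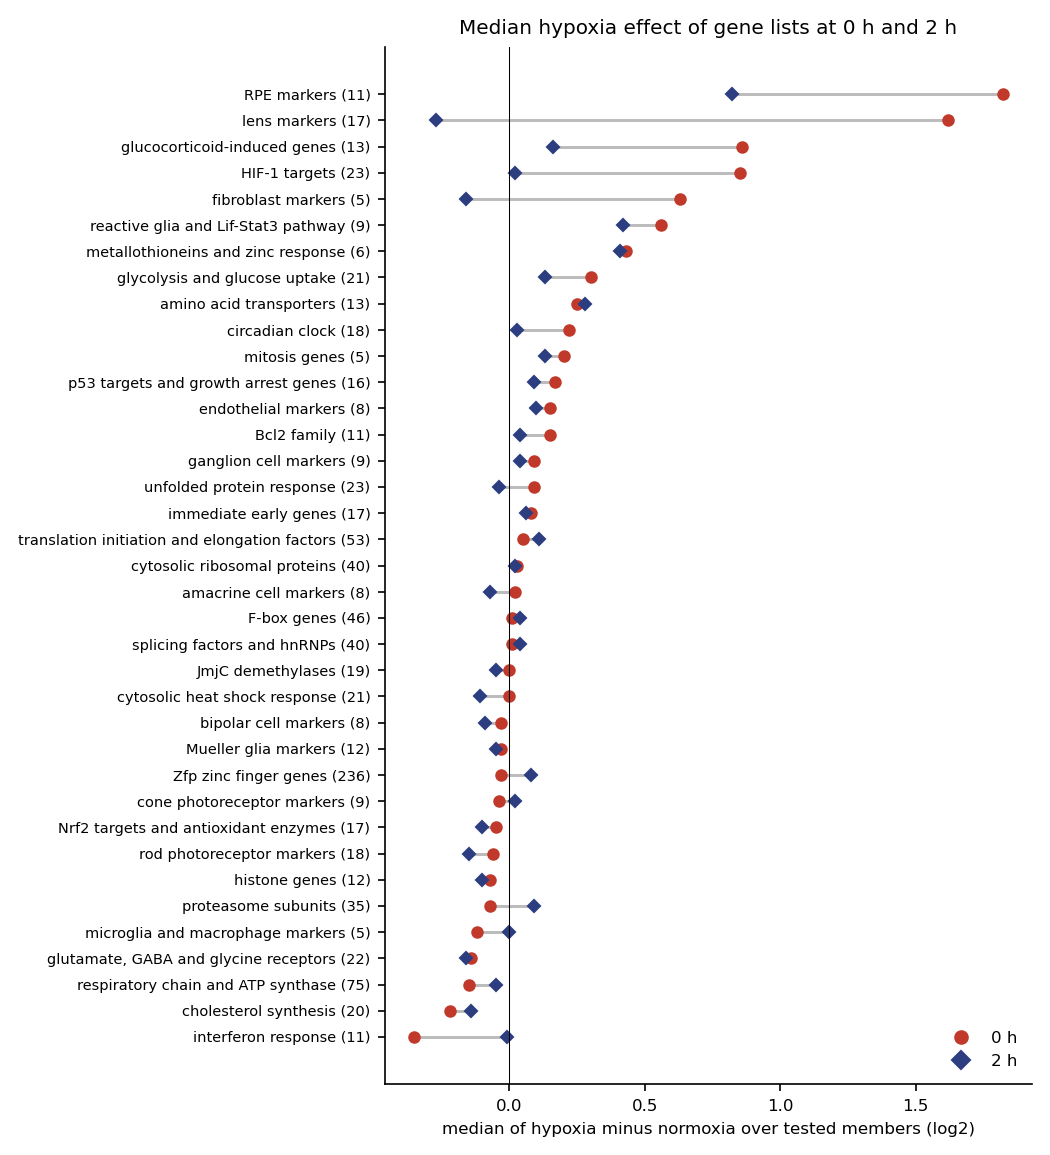
Median log2 hypoxia effect of each gene list with at least 5 tested genes (number in parentheses) at 0 h (red circles) and 2 h (blue diamonds). The HIF-1 targets move from 0.85 to 0.02 and the glucocorticoid-induced genes from 0.86 to 0.16, whereas the lists of retinal cell types stay near 0 at both time points.

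In several lists no difference or 1 was called. None of 75 tested genes of the respiratory chain and ATP synthase had a called difference, beside 8.21% of all tested probe sets. Of these genes, 26 were lower at 0 h and 8 at 2 h (median -0.15 and -0.05), beside 17.2% and 7.38% of all. Nor was a difference called for any of 40 cytosolic ribosomal protein genes or 20 cholesterol synthesis genes. Of the latter, 7 were lower at 0 h and 5 at 2 h. Of 35 proteasome subunit genes, 9 were higher at 2 h and 2 at 0 h, beside 9.19% and 15.2% of all. Among them 1, Psma5, had a called difference (-0.67 to -0.08). In the unfolded protein response list the effect was lower at 2 h than at 0 h for 4 of 23 genes, beside 2.8% of all tested probe sets. These were Ddit3 (0.83 to 0.02), Trib3 (0.67 to -0.12), Calr (0.37 to -0.13) and Hspa5 (0.22 to -0.27), and the count lay between 1 and 6 without each array. The effect was also lower at 2 h than at 0 h for 3 of 17 immediate early genes and 3 of 19 JmjC demethylase genes. It was higher for 1 of the latter. Over all tested probe sets the shares were 2.8% lower and 5.41% higher.

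The defining markers of the retina were present, and those of 7 of its cell types had no called difference, beside 8.21% of all tested probe sets. The lists were rods (18 tested), cones (9), Mueller glia (12), bipolar cells (8), amacrine cells (8), ganglion cells (9) and horizontal cells (2). Gnat1, the rod transducin, was -0.08 and -0.09, and Glul, the glutamine synthetase of Mueller glia, 0.06 and 0.12. The median differences of these 7 lists lay between -0.12 and 0.02. Of 8 tested endothelial markers, 1 had a lower effect at 2 h than at 0 h, and of 5 tested microglia and macrophage markers 0 had a called difference. All 6 erythroid markers on the array were below the threshold in every group.

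Markers of neighbouring tissue also had called differences. Of 16 retinal pigment epithelium (RPE) markers on the array, 11 were tested, 9 were higher in hypoxic pools at 0 h (15.2% of all tested probe sets were), and 4 had a lower effect at 2 h than at 0 h (2.8% of all). These were Rpe65, the retinoid isomerase (3.48 to 0.69), Ttr, the retinol carrier transthyretin (3.75 to 1.12), Rgr (3.57 to 1.08) and Rdh5 (2.60 to 0.66). The mean log2 signal of the 16 markers was 8.11, 7.93 and 7.97 in hypoxic and 6.43, 6.64 and 6.52 in normoxic pools at 0 h, and 7.71, 8.04 and 7.20 against 6.63, 7.58 and 6.99 at 2 h. Best1, Krt8, Lrat, Mlana and Tyr were below the threshold in every group. Rpe65 itself read 9.35, 9.24 and 9.20 in hypoxic and 5.41, 6.08 and 5.86 in normoxic pools at 0 h. At 2 h it read 7.77, 8.68 and 6.93 against 6.05, 8.0 and 7.27, with overlap. The controls rose by 1.32 and the hypoxic pools fell by 1.47, so both arms contributed. The 4 calls became between 1 and 5 without each array, and how much of these differences came from a varying share of RPE in the pools was not tested.

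**Figure D5:**
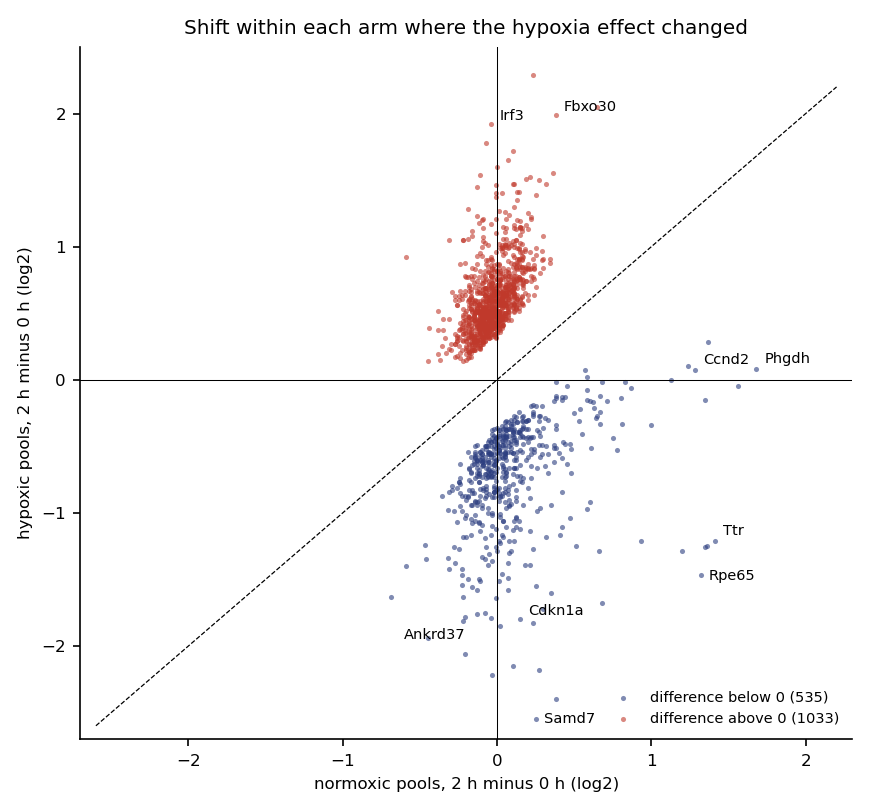
The 1568 probe sets whose hypoxia effect changed, with the shift of the normoxic pools from 0 h to 2 h on the x axis and that of the hypoxic pools on the y axis (log2); the dashed line marks equal shifts. Most points lie along the vertical axis, whereas Rpe65, Ttr, Phgdh and Ccnd2 lie more than 1 to the right of it.

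For most probe sets the hypoxic arm carried the difference. Between 0 h and 2 h, 27.6% of the 19098 probe sets shifted in hypoxic and 0.424% (81) in normoxic retinas, where 2321 had an unadjusted p under 0.05. Of the 1568 called differences, 1492 (95.2%) had the larger shift in hypoxic retinas, with a median absolute shift of 0.58 against 0.10. The normoxic shift was called for 22 of them. Among the 81, 68 were higher at 2 h, led by the secreted Wnt modulators Sfrp1 (1.92) and Rspo1 (1.83), the transcription factor gene Dmrta2 (1.70), the gap junction gene Gja1 (1.69) and the serine synthesis gene Phgdh (1.68). The difference of effects was called for Phgdh (-1.60), a call made in 5 of the 12 fits without an array. Its other 2 tested probe sets were not called. No difference was called for Sfrp1, Rspo1, Dmrta2 and this probe set of Gja1. Another Gja1 probe set had a called difference (-1.09, adjusted p = 0.0317), also in 5 of these fits. For Sfrp1, Rspo1, Dmrta2 and Phgdh, normoxia 0 h replicate 2 lay well below the other controls of 0 h. Sfrp1 read 5.88 there against 7.65 and 7.78, and Phgdh 6.25 against 7.99 and 7.95. Ccnd2, the cyclin D2 gene, had a called difference of -1.21 ± 0.35 that lay in the controls, with a normoxic shift of 1.28 and a hypoxic shift of 0.07, and was called in 5 of the 12 fits without an array.

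One control pool stood apart in lens content. The mean log2 signal of 17 lens markers, mostly crystallin genes, was 7.41 in normoxia 0 h replicate 2 and between 10.24 and 12.42 in the other 11 pools. The median difference of effects over these genes was -1.91, and limma called 0 of 17 at any of these comparisons. Without normoxia 0h replicate 2, 1383 differences of effects and 0 normoxic shifts were called. In that fit the HIF-1 target count stayed at 19 and the Zfp count became 28. The 1383 lay within the range of 967 to 1672 from leaving out each array in turn. Omitting replicate 1 or replicate 2 of the 2 h controls also left 0 normoxic shifts. Neither count was thus particular to the lens-poor pool. The role of lens tissue in single differences was not tested.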

How the data were processed

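Total retinal RNA was hybridised to Affymetrix whole-genome mouse arrays. The deposited values are log2 signals that the authors summarised with RMA (background correction, quantile normalisation and summary per probe set, version not given in the sources used here). No column holds comparisons of the authors, and 0 sample columns were left unmapped. The values ran from 2.69 to 14.51. The number of arrays limits the precision, since arrays give no read depth.

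Of 45101 probe sets, 64 controls were left out. The platform annotation gave 1 gene for 34945 of the others, several for 932 and none for 9160, and only those with 1 gene are named. limma 3.58.1 in R 4.3.3 fitted a mean for each of 8 groups over all 24 arrays, which left 16 residual degrees of freedom, and all adjusted p-values are from its moderated contrasts with Benjamini-Hochberg adjustment over the probe sets tested. The scripts were tested on simulated data. An effect at 1 time point was tested where a group of that time point reached the threshold.

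Genes were named by rule: the 15 largest differences in each direction called also without each of the 12 arrays, the 10 largest of the reversed, arisen and kept courses, genes the study names, and up to 4 called members (2 if none was called) of each of 40 lists. Where a listed gene had several probe sets, the brightest on average was used. Other probe sets of named genes, genes with split probe sets and genes led by their normoxic shift were chosen after their values were seen. The members and lists were chosen with earlier results of these data known. Promoters came from RefSeq, the first of each gene. Alternatives covered the signal filter, normalisation, spread, arrays, pairing, moderation, ambiguous probe sets, threshold and each array left out.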

Additional observations from a re-analysis of the deposited data

Results flagged for a closer look

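The hypoxia effect differed between 0 h and 2 h by a test of the difference itself for 1568 probe sets, and for 80 of these it was called in opposite directions at both time points. The 10 genes with the largest reversed effects at 2 h had differences on the log2 scale of -1.75 for Ankrd37, 1.01 for Polr3k, -1.58 for Epm2a, 1.00 for Rad1, -1.60 for Nfkbiz, 1.09 for Mettl6, 1.21 for Suv39h2, -0.95 for P4ha1, 0.92 for Dnaaf2 and 0.79 for Pias4. In 7 of the 10 the hypoxic pools did not overlap with the controls at either time point, while those of Nfkbiz and Epm2a overlapped with them at 2 h and those of Rad1 at 0 h. Groups of 3 pools are too small for a check of single pools against their group.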

How the results depend on the processing

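No called difference changed sign with quantile normalization, median centring, array quality weights or any array left out. The other alternatives keep the same group means, so the sign could not change there. The number of calls depended on how the spread was estimated. Counts below are in the order difference of effects, normoxic shift, more than 50% kept, more than 50% lost, faded, partly recovered, reversed and arisen, against 1568, 81, 104, 380, 1131, 105, 80 and 190. With the 12 arrays of 0 h and 2 h alone they were 881, 1, 27, 111, 695, 46, 41 and 69. With an unmoderated linear model on these arrays they were 710, 0, 15, 44, 543, 36, 54 and 63, and at an adjusted p under 0.1 they were 2376, 315, 241, 668, 1557, 208, 177 and 351. Without the signal filter, 1252 differences were called, with 0 normoxic shifts, 51 kept, 226 lost, 68 partly recovered and 104 arisen. A threshold higher by 1 gave 37 normoxic shifts, and trended and robust spread 161 kept. The causes were not tested.

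Replicate numbers did not pair the samples: deviations of same-numbered hypoxic and normoxic pools correlated at 0.151, 0.0266 and -0.24 at 0 h and at -0.0952, 0.0448 and 0.0883 at 2 h. The replicate block within a time point was fitted on the 12 arrays of 0 h and 2 h alone. Without a block these arrays gave 881 differences. With this block, 497 differences were called, 486 of them among the 1568, with 1212 effects at 2 h. It gave 1 kept, 13 lost, 417 faded, 21 partly recovered, 19 reversed and 25 arisen. The count to set beside the 497 is thus 881 rather than 1568. With the block over all time points, 1712 differences and 177 normoxic shifts were called.

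Leaving out each array in turn gave 967 (without hypoxia 0h replicate 1) to 1672 differences, 4809 to 6250 effects at 0 h, 1628 to 3106 at 2 h, 3748 to 5445 hypoxic and 0 to 391 normoxic shifts, the latter 391 without normoxia 2h replicate 3. It gave 40 to 110 kept, 198 to 471 lost, 695 to 1242 faded, 48 to 105 partly recovered, 47 to 97 reversed and 103 to 192 arisen. Low signal limits what is shown for genes such as Adm and Kif4, whose controls were below the threshold. How far this alters their folds was not tested.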
